A study of Mus musculus with 8 samples.

Results

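Polycomb repressive complex 2 (PRC2) is described here through 10 of its genes, Ezh1, Ezh2, Suz12, Eed, Rbbp4, Rbbp7, Jarid2, Mtf2, Phf19 and Aebp2, which were chosen by name among the 19938 genes measured in the series. All 10 were present on the arrays, and where a gene had several probe sets the one brightest on average stood for it. The cells were a mouse pre-iPSC clone, named MaF pre-iPSC9P2 in the labels, that is, partly reprogrammed cells on the way from a somatic to a pluripotent state. Feeder cells supported them, in the medium used for mouse embryonic stem cells, and were removed before RNA was measured, per the labels' protocols. Untreated cells (4 arrays, on days 3, 4, 5 and 6) received this medium alone, and vitamin C cells (4 arrays, on the same days) received it with vitamin C (ascorbate) at 50 µg/ml from day 2. Each treatment and day has 1 array, so a difference on a single day has no replicate, and all arrays come from 1 clone. Whether the days were separate cultures is not stated, and p-values therefore speak of the spread among these 8 arrays, part of which may be technical.

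PRC2 is the complex that methylates histone H3 at lysine 27 (the H3K27 mark), which keeps developmental genes silent. Ezh2 or its close relative Ezh1 carries the catalytic domain, Eed binds the finished mark and stimulates the enzyme, Suz12 holds the complex together, and Rbbp4 or Rbbp7 binds histones. Accessory subunits divide the complex into forms: Mtf2 and Phf19 are Polycomb-like proteins of one form, while Jarid2 and Aebp2 belong to the other. In embryonic stem cells Jarid2 and Mtf2 are known to be abundant and to help bring PRC2 to CpG-rich promoters, and Ezh2 is known as a gene of dividing cells, whereas Ezh1 is also found in cells that have stopped dividing.

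The arrays differed little in their overall level, with medians of all probe sets from 4.33 to 4.40 on the log2 scale. The label of the cells was checked against markers: Pou5f1, a pluripotency factor that reprogramming cocktails also supply, lay between 11.9 and 12.1 on all 8 arrays, and whether its probes also read introduced copies is not stated. The 21 pluripotency markers had a mean level of 6.19 to 6.63 on untreated arrays and 6.65 to 7.77 on arrays with vitamin C. Pou5f1 was the brightest of these 21, and the means of single markers over the 8 arrays went down to 3.74, for Zfp42. The 27 feeder or fibroblast markers had a mean level of 6.39 to 7.36 on untreated arrays and 6.37 to 6.86 with vitamin C. In bulk samples such as these, fewer cells of a type and less RNA per cell cannot be told apart.

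In brief, the amount of PRC2 mRNA was measured in cells that changed in many other genes, and the PRC2 genes moved by small amounts. With vitamin C, Ezh2 fell and Jarid2 rose from day 3 to day 6. For these 2 genes the values with vitamin C on day 6 were 0.608 and 1.56 times those on day 3. Untreated values moved the same way, to 0.767 and 1.22 times, without passing. The change with day passed a test that 8.64% of all genes also passed. No PRC2 gene passed the test for a difference between the treatments over all days, or for a difference in the change with day. Values are log2 RMA values, in which a step of 1 is a 2-fold change, and levels of different genes are not compared because each probe set has its own brightness.

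The promoters of Ezh2 and Jarid2 are shown because these are the 2 members that passed a test. They are RefSeq start sites on GRCm38.p6, printed 5′ to 3′ on the gene's strand, from 250 bases before to 30 bases after the start, and capitals mark a match to the E2F motif, a sequence found at many genes of DNA replication. Jarid2 has 2 listed starts. The Ezh2 stretch is chr6:47595001-47595280 on the minus strand, and those of Jarid2 are chr13:44730524-44730803 and chr13:44731021-44731300 on the plus strand.
Ezh2: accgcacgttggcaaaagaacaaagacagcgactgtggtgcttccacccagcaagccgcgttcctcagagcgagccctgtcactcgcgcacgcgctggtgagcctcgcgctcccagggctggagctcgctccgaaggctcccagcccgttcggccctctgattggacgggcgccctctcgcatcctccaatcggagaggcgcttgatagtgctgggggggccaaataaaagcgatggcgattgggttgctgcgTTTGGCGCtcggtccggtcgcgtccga
Jarid2, upstream start: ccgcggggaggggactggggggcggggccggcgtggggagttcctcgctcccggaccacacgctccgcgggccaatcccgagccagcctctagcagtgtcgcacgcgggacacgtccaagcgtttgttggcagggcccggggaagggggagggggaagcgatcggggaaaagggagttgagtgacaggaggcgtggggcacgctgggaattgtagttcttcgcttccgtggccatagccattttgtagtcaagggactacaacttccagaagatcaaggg
Jarid2, downstream start: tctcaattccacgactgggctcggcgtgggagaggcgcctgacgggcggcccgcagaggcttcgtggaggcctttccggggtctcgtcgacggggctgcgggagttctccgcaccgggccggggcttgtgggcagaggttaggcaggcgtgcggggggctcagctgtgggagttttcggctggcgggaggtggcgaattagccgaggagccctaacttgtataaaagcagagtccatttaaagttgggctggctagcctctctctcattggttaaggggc

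The motif was searched as TTTCCCGC, TTTCGCGC, TTTGCCGC and TTTGGCGC on both strands of 300 bases, which here run to 50 bases after the start. Of 32851 such promoters, 2.26% held it. Of the 10 members, which together have 14 listed promoters, Ezh2, Suz12 and Phf19 held 1 match each. The match of Ezh2 begins at base 4, counted from 1 at the start site, while those of Suz12 and Phf19 begin at bases -219 and -208, before it. No match was in the 2 windows of Jarid2, which says only that these letters are not there. The Ezh2 promoter has 31 CpG dinucleotides and those of Jarid2 have 24 and 23, against a median of 7 over all promoters. Across the 14 promoters of the members, the count ran from 2, at the second start of Mtf2, to 41 for Suz12.

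The first question was how the enzyme genes behaved. Untreated Ezh2 read 8.90, 8.92, 8.70 and 8.52 on days 3, 4, 5 and 6, and with vitamin C it read 8.98, 8.80, 8.45 and 8.26. The array with vitamin C was thus the higher one on day 3 and the lower one on the 3 later days, and the 2 groups overlap. With vitamin C Ezh2 was lower on each later day, a pattern that 11.1% of all genes showed, and it fell by 0.72 on the log2 scale between the first and the last day, 1.65-fold. Its change per day was -0.25 ± 0.06 (log2, moderated SE of limma, adjusted p = 0.0272), which passed the threshold of 0.05. Without vitamin C the change per day was -0.14 ± 0.06 and did not pass (adjusted p = 0.272).

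Whether Ezh2 fell faster with vitamin C than without was tested as an interaction. The slopes differed by -0.11 ± 0.08 per day (adjusted p = 0.647), with a 95% interval from -0.30 to 0.07, so that a faster fall with vitamin C was not shown and neither were equal slopes. Over all days the mean difference, vitamin C minus untreated, was -0.13 ± 0.11 (adjusted p = 0.687). The daily differences of Ezh2 ran from 0.08 on day 3 to -0.25 on days 5 and 6.

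Ezh1, the other enzyme gene, had values that moved upwards with day in both treatments, without passing the test. It read 6.76, 6.74, 6.93 and 7.26 without vitamin C and 6.74, 6.82, 7.11 and 7.06 with it. The lowest values are those of days 3 and 4 in both groups, and the highest of all is the untreated array of day 6. The change per day was 0.17 ± 0.06 in untreated cells (adjusted p = 0.215) and 0.12 ± 0.06 with vitamin C (adjusted p = 0.261), and the mean difference between treatments was 0.02 ± 0.11. Ezh1 and Ezh2 are related in sequence, and how far their probes read 1 gene alone is not stated.

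**Figure D1:**
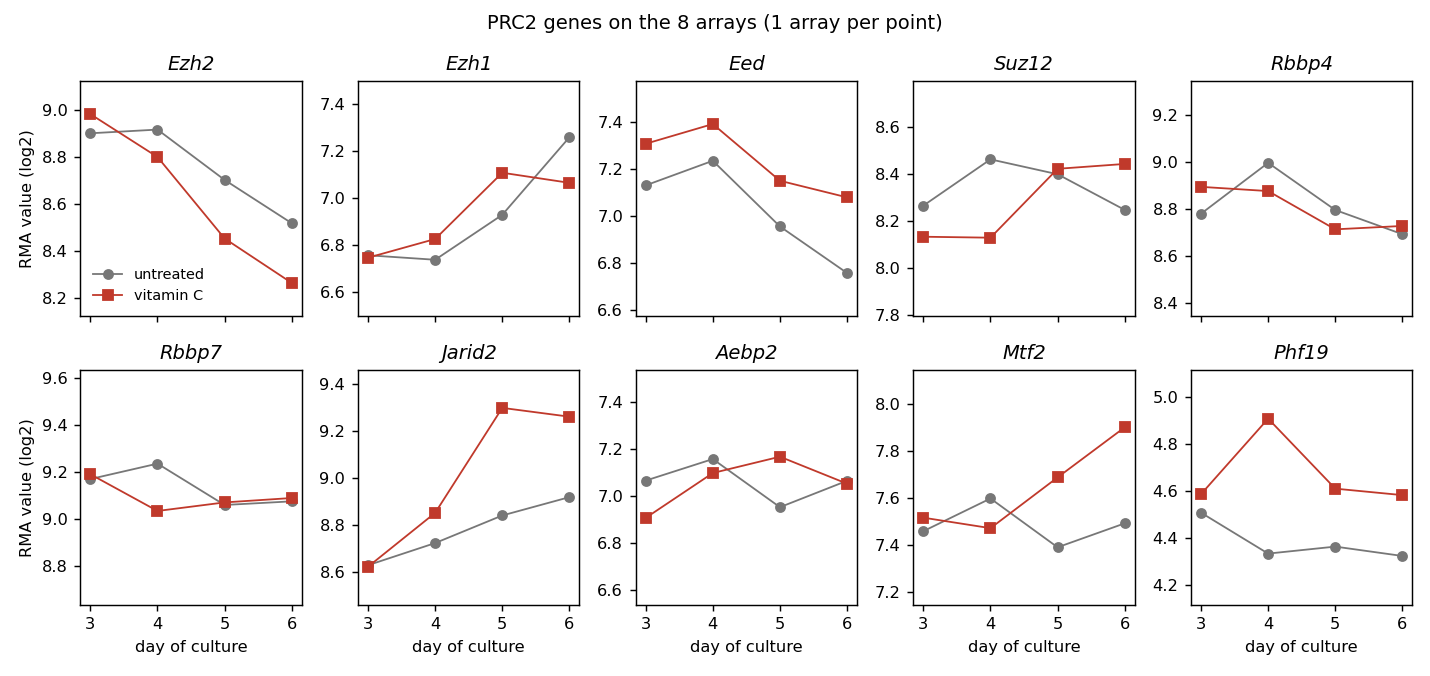
Log2 RMA values (vertical axis, each panel spanning 1 log2 unit) of the 10 PRC2 genes by day of culture (horizontal axis) in untreated cells (grey circles) and cells with vitamin C (red squares), 1 array per point. Ezh2 with vitamin C runs from 8.98 down to 8.26 and Jarid2 with vitamin C from 8.62 up to 9.26, and the 2 groups do not overlap for Phf19.

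Among the other core subunits, Eed had the steadiest difference between treatments. Eed, the reader of the finished mark, read 7.13, 7.24, 6.96 and 6.76 in untreated cells and 7.31, 7.39, 7.15 and 7.08 with vitamin C. The array with vitamin C was the higher one on all 4 days, by 0.16 to 0.32, although the ranges of the 2 groups overlap. The mean difference was 0.21 ± 0.10 (moderated SE, adjusted p = 0.435) with an SD of the daily differences of 0.075, and it did not pass over all genes. A daily difference of 1 sign on all 4 days was found in 20.3% of all genes, and one above 0 on all 4 days in 9.29%, while 2 of the 10 members, Eed and Phf19, were above 0 on all days. Both treatments had lower Eed values on days 5 and 6 than on days 3 and 4, with a change per day of -0.14 ± 0.06 without and -0.09 ± 0.06 with vitamin C, neither of which passed. A second, dimmer probe set of Eed, between 2.20 and 2.71 on all arrays, gave a mean difference of 0.03 ± 0.10.

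Suz12, the scaffold, read 8.27, 8.46, 8.40 and 8.25 in untreated cells and 8.13, 8.13, 8.42 and 8.44 with vitamin C. It was lower with vitamin C on days 3 and 4 and higher on days 5 and 6, so the mean difference of -0.06 ± 0.12 joins opposite signs. Its slopes differed by 0.13 ± 0.09 per day (adjusted p = 0.613), which is within the error of the arrays after adjustment.

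The histone-binding subunits Rbbp4 and Rbbp7, which also serve in other chromatin complexes, had ranges of 0.30 and 0.20 over the 8 arrays. Rbbp4 read 8.78, 8.998, 8.80 and 8.69 without and 8.90, 8.88, 8.71 and 8.73 with vitamin C. Rbbp7 read 9.17, 9.24, 9.06 and 9.07 without and 9.19, 9.03, 9.07 and 9.09 with vitamin C, the narrowest range of the 10 members. Their mean differences were -0.01 ± 0.10 and -0.04 ± 0.10. A second probe set of Rbbp7, between 8.20 and 8.52, had a mean difference of -0.0012. The 2 proteins are close relatives, and whether each probe set reads 1 of them alone is uncertain.

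Jarid2 was the member with the clearest rise. This subunit, named for its jumonji domain, read 8.63, 8.72, 8.84 and 8.92 in untreated cells and 8.62, 8.85, 9.30 and 9.26 with vitamin C. The 2 treatments were level on day 3, and the arrays with vitamin C of days 5 and 6 lie above every untreated array. With vitamin C the change per day was 0.24 ± 0.06 (moderated SE, adjusted p = 0.0432), and Jarid2 rose 1.56-fold between the first and the last day. In untreated cells it was higher on each later day, as were 8.83% of all genes, with a change per day of 0.10 ± 0.06 that did not pass (adjusted p = 0.464).

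The daily differences of Jarid2 were -0.0065, 0.13, 0.46 and 0.34 on days 3 to 6. Their growth of 0.14 ± 0.09 per day did not pass (adjusted p = 0.594, 95% interval from -0.06 to 0.33), nor did their mean of 0.23 ± 0.12 (adjusted p = 0.469). The higher level of Jarid2 with vitamin C on days 5 and 6 is therefore a description of 4 arrays.

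Aebp2, a zinc finger subunit of the same form as Jarid2, did not follow it. It read 7.07, 7.16, 6.95 and 7.06 in untreated cells and 6.91, 7.10, 7.17 and 7.05 with vitamin C. The daily differences change sign, and their mean was -0.0039 ± 0.11 (adjusted p = 0.994).

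Mtf2, a Polycomb-like subunit, read 7.46, 7.60, 7.39 and 7.49 in untreated cells and 7.52, 7.47, 7.69 and 7.90 with vitamin C. The 2 highest values are those with vitamin C on days 5 and 6. The change per day was 0.14 ± 0.06 with vitamin C (adjusted p = 0.205) and -0.01 ± 0.06 without, and the slopes differed by 0.15 ± 0.09 (adjusted p = 0.566). That difference was 0.27 without both arrays of day 3 and 0.096 without the array with vitamin C of day 6.

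Phf19, also a Polycomb-like subunit, was the 1 member whose groups did not overlap. It read 4.51, 4.33, 4.36 and 4.32 in untreated cells and 4.59, 4.91, 4.61 and 4.58 with vitamin C. Every array with vitamin C lies above every untreated array, and day 4 with vitamin C stands apart at 4.91. Such a separation was found in 4.71% of all genes in either direction and in 2.1% with vitamin C higher. The mean difference was 0.29 ± 0.11 (moderated SE, adjusted p = 0.332, unadjusted p = 0.0327), with an SD of the daily differences of 0.21. These levels are close to the median of all probe sets on the arrays, and a detection call was not used here.

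**Figure D2:**
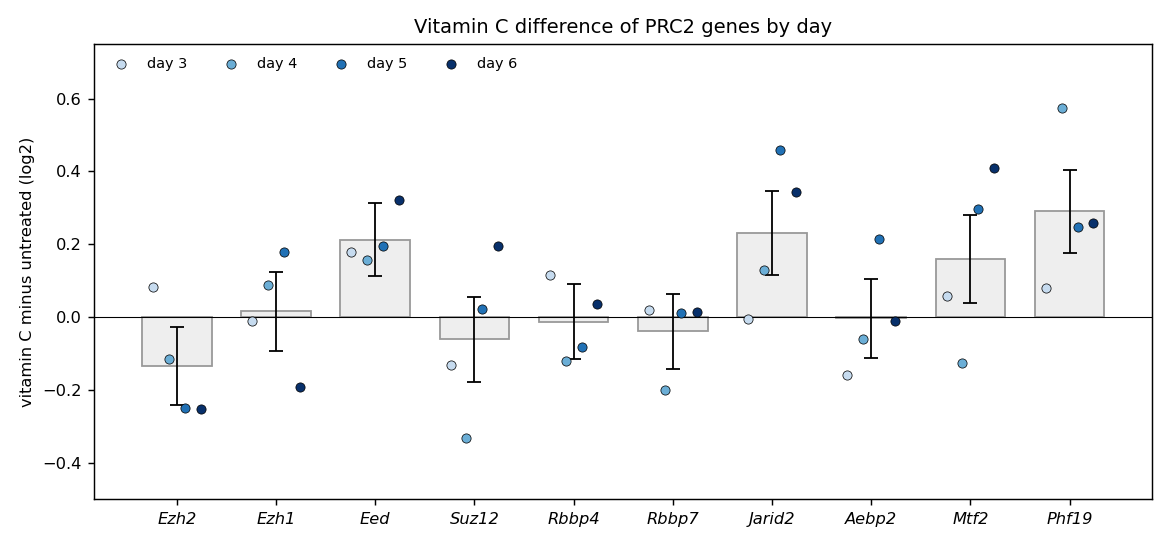
Difference between the array with vitamin C and the untreated array of the same day (log2, points coloured by day) for each PRC2 gene, with the mean over 4 days (bars from 0) and its moderated standard error (whiskers). Eed and Phf19 are above 0 on all days, with means of 0.21 and 0.29, while the points of the other genes lie on both sides of 0.

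Over all days, the vitamin C difference passed the test for 0 of the 10 members, against 0.752% of all genes (150 of 19938), of which 0.537% were higher and 0.216% lower with vitamin C. At an unadjusted p under 0.05, 1 member passed (Phf19), against 12.7% of all genes. The mean differences ran from -0.13 for Ezh2 to 0.29 for Phf19, 5 above and 5 below 0, with a median of 0.0060 beside a median of -0.0066 over all genes. For the interaction with day 0 of 10 passed, against 0.0652% of all genes, and 0 had an unadjusted p under 0.05, against 11.3% of all genes. The median of the members was 0.034 per day and that of all genes -0.017.

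For the change per day in untreated cells, 0 of 10 members passed, against 1.75% of all genes (0.782% upward and 0.968% downward), and at an unadjusted p under 0.05 there were 2, Ezh1 and Ezh2, against 17% of all genes. With vitamin C 2 of 10 passed, Ezh2 downwards and Jarid2 upwards, against 8.64% of all genes, of which 5.25% were upward and 3.39% downward. The median slope of the members with vitamin C was 0.012 per day, beside -0.023 over all genes, with 5 members above and 5 below 0. The slopes of all members lay between -0.25 and 0.24. A steady order over the 4 days was also counted. With vitamin C 1 member was lower on each later day (Ezh2) and 0 were higher, against 11.1% and 7.59% of all genes (18.7% together). In untreated cells 0 were lower on each later day and 1 was higher (Jarid2), against 9.52% and 8.83% of all genes (18.4% together). With 10 members, a count of 1 cannot be told from these shares.

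Both calls were close to the threshold. In limma, Ezh2 missed it without both arrays of day 3 (slope -0.27, adjusted p = 0.152), of day 5 (-0.24, adjusted p = 0.116) or of day 6 (-0.26, adjusted p = 0.306), and without the single arrays with vitamin C of day 3 (adjusted p = 0.143), day 5 (adjusted p = 0.0589) or day 6 (adjusted p = 0.216) or the untreated array of day 5 (slope -0.25, adjusted p = 0.0513). Jarid2 missed it in 13 of 18 alternative settings, with slopes from 0.20 to 0.34 and adjusted p-values up to 0.299. These were all 12 settings that left out a day or an array (without both arrays of day 4 the slope was 0.23, adjusted p = 0.0784) and the centring of arrays on their medians (adjusted p = 0.0540). Over all genes the 1722 calls of slopes with vitamin C became 627, 1549, 674 and 167 without days 3, 4, 5 and 6. They became 775, 1680, 1112 and 270 without the single arrays with vitamin C of those days. Without 1 untreated array they were 1282 to 1448, and with median centring 1827. Losses on leaving out a day or an array are therefore not particular to these 2 genes. Ezh2 and Jarid2 kept their direction in all 18 settings, but many of these settings could not have changed it. Dropping an untreated array leaves the slope with vitamin C as it is (0.236 for Jarid2). Dropping both arrays of a day gives the same slope as dropping only the one with vitamin C. Each gene has 1 probe set, so other uses of probe sets cannot move its slope, and neither can the trend and robust options or the filter on dim genes.

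**Figure D3:**
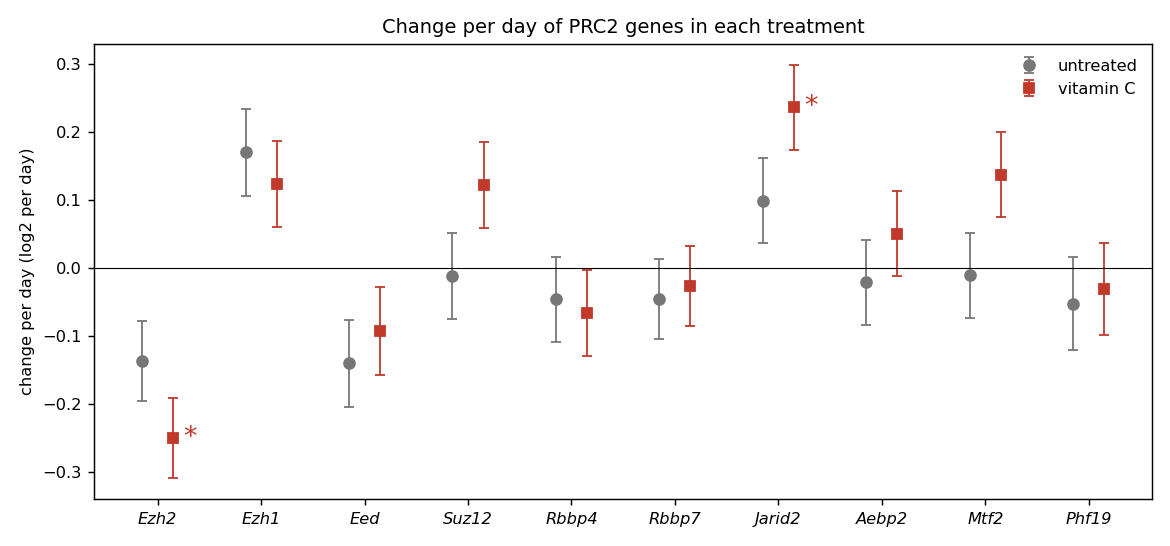
Change per day (log2 per day, vertical axis) of each PRC2 gene in untreated cells (grey circles) and with vitamin C (red squares), with moderated standard errors, from 1 model over 8 arrays. Stars mark the slopes past the threshold, which are Ezh2 (-0.25) and Jarid2 (0.24) with vitamin C.

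Genes with a course like that of Ezh2 and Jarid2, the 2 members with the widest range over the arrays, were sought by the root mean square difference between 8 values, each gene centred on its own mean. Nearest to Ezh2 was Dido1, at 0.033 log2 units, with values from 7.30 down to 6.87 in untreated cells and from 7.35 down to 6.61 with vitamin C on days 3 and 6. It was followed by the septin gene Septin11, the Hippo pathway scaffold gene Sav1, the glycosyltransferase gene Galnt4 and the cap-binding gene Ncbp1, at 0.04 to 0.05. Nearest to Jarid2 were Ppp1r9a, an actin-binding protein gene, and the zinc finger gene Casz1, both at 0.05, then Lrp11, Scgb1b27 and the deubiquitinase gene Otud5, at 0.05 to 0.06. No other PRC2 gene was among the 5 nearest to either.

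Markers of proliferation moved with Ezh2. Of 27 cell cycle genes 5 fell with day in cells with vitamin C, Rrm2 (-0.54), Ccne2 (-0.32), E2f2 (-0.28), Mcm5 (-0.23) and Cdk1 (-0.21), against 3.39% of all genes. They encode a ribonucleotide reductase subunit, a cyclin, a transcription factor, a helicase subunit and a kinase of the cell cycle. The median slope of the list was -0.15 per day, and 26 of 27 genes lay below 0. Without vitamin C 0 of 27 passed in limma, against 1.75% of all genes (5 at an unadjusted p under 0.05, against 17%). The median of the list was then -0.09, with 25 genes below 0.

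The mean level of that list was 7.99, 7.98, 7.93 and 7.63 on days 3 to 6 in untreated cells and 8.02, 7.99, 7.77 and 7.57 with vitamin C, so it was highest on days 3 and 4 in both, as Ezh2 was. The part of this shift in the course of Ezh2 was not tested. The 5 calls became 2 without both arrays of day 3 or of day 4, 1 without those of day 5 and 0 without those of day 6. Over all genes the 676 falls with vitamin C became 160, 612, 168 and 30 without days 3, 4, 5 and 6.

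Other markers also moved with day, beside Ezh2 and Jarid2. With vitamin C 12 of 21 pluripotency markers rose, among them Sox2 (0.94), Dppa4 (0.63), Nanog (0.61) and Lin28a (0.53), with a median of 0.43 per day, against 5.25% of all genes. This count became 5 without both arrays of day 3, 14 without those of day 4, 8 without those of day 5 and 4 without those of day 6. Over all genes the 1046 rises with vitamin C became 467, 937, 506 and 137 without days 3, 4, 5 and 6. Over all days 6 of 21 were higher with vitamin C in limma, against 0.537% of all genes. The smallest p were those of Dppa5a (3.44), Nanog (1.79) and Dppa2 (3.33). Those 6 calls became 9, 2, 3 and 3 without both arrays of days 3, 4, 5 and 6. Over all genes the 107 calls higher with vitamin C became 207, 3, 9 and 65. Sox2 was the 1 marker of this list whose slopes differed between the treatments in limma (0.85 ± 0.12, adjusted p = 0.0391). When both arrays of any 1 day were left out, 0 markers of the list passed that test. In those settings 0 of all 19938 genes passed it, so this loss is not particular to Sox2 or the list. In untreated cells 3 of 21 rose, Tdgf1 (0.58), Nanog (0.38) and Lin28a (0.32), against 0.782% of all genes, and 0 without both arrays of day 3 or of day 6, 2 without those of day 4 and 1 without those of day 5. Feeder or fibroblast markers fell: 13 of 27 without vitamin C, among them Pdgfrb (-0.59) and Col1a1 (-0.52), and 7 of 27 with it, among them Prrx1 (-0.39) and Col1a1 (-0.32), with medians of -0.35 and -0.18 per day, against 0.968% and 3.39% of all genes. The untreated count became 8 without both arrays of day 3 or of day 5, 12 without those of day 4 and 0 without those of day 6. Over all genes the 349 untreated calls became 91, 252, 144 and 1 without days 3, 4, 5 and 6. With vitamin C the count of feeder or fibroblast markers became 0 without both arrays of day 3 or of day 6. It was 1 without those of day 5 and 7 without those of day 4. Over all genes the 676 falls with vitamin C became 160, 612, 168 and 30 without days 3, 4, 5 and 6. The part of these markers in the values of the PRC2 genes was not tested. When day was replaced in the model by the mean feeder or fibroblast marker level, the treatment difference of Ezh2 was 0.08 (adjusted p = 0.883), on the other side of 0, and that of Ezh1 was -0.18 (adjusted p = 0.615), neither passing. Under the same replacement the difference of Jarid2 was 0.068 (adjusted p = 0.913) in place of 0.23, and that of Eed was 0.38 (adjusted p = 0.272) in place of 0.21. The marker mean itself was 7.36 without and 6.86 with vitamin C on day 3, and 6.39 and 6.37 on day 6. It varied with both treatment and day, so these fits cannot show what part the markers had.

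Of the 7 blood cell markers, Csf1r (1.09 per day) and Cd68 (0.79) rose with day in cells with vitamin C. The other 5 did not pass, and over all genes 5.25% rose in this test. Without both arrays of day 6, 0 of the 7 passed, and the 1046 rises over all genes became 137. With vitamin C, Csf1r went from 3.60 on day 3 to 6.76 on day 6. The pan-leukocyte marker Ptprc lay between 2.56 and 3.30 on all arrays. Adgre1 lay between 2.72 and 3.04, Itgam between 2.96 and 3.44, Lyz2 between 1.97 and 2.77, and Cd3e between 3.47 and 3.93. Of 8 endothelial markers Tek fell with vitamin C (-0.35 per day), against 3.39% of all genes. Pecam1, which pluripotent cells also express, was higher with vitamin C over all days (0.81), against 0.537% of all genes. Of the endothelial markers 0 fell with day without both arrays of day 3, 5 or 6, and 0 were higher with vitamin C over all days without those of day 4, 5 or 6. Over all genes the treatment test had 3, 9 and 104 calls without days 4, 5 and 6, in place of 150. The 676 falls with day over all genes with vitamin C became 160, 168 and 30 without days 3, 5 and 6.

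**Figure D4:**
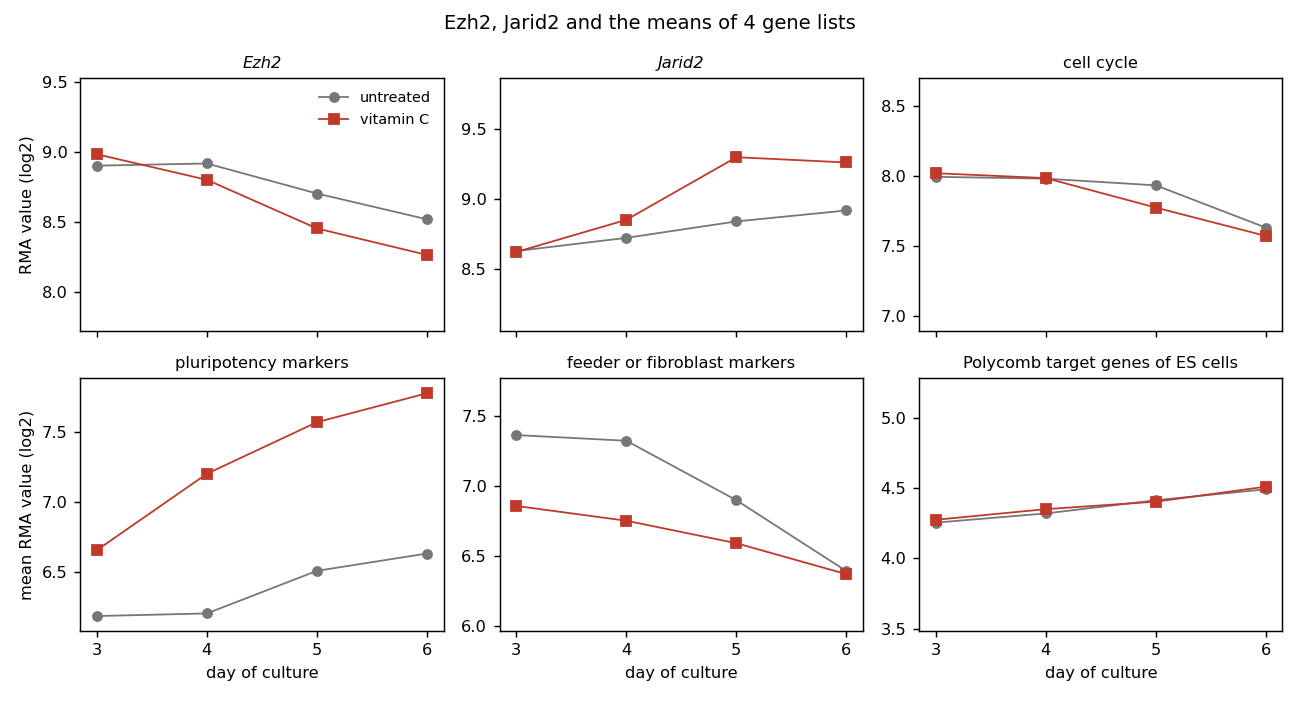
Log2 RMA values of Ezh2 and Jarid2 and mean log2 values of 4 gene lists (27 cell cycle genes, 21 pluripotency markers, 27 feeder or fibroblast markers, 37 Polycomb target genes) by day, untreated (grey circles) and with vitamin C (red squares), each panel spanning 1.8 log2 units. The cell cycle mean is lowest on day 6 in both treatments (7.63 and 7.57), and the target gene mean goes from 4.26 to 4.49 without and from 4.28 to 4.51 with vitamin C between days 3 and 6.

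The other genes of the Polycomb system were examined from lists of partners, antagonists and targets. Over all genes 0.752%, 0.0652%, 1.75% and 8.64% passed for the treatment difference, the interaction and the slopes without and with vitamin C. At an unadjusted p under 0.05 these shares were 12.7%, 11.3%, 17% and 24.9%. The 7 further PRC2 partners (such as Phf1, Epop, Lcor and the inhibitor gene Ezhip) had 0 calls in all 4 comparisons in limma, with 1, 0, 0 and 2 at an unadjusted p under 0.05 for the treatment difference, the interaction and the slopes without and with vitamin C. The smallest p for the treatment difference was that of Ezhip, at -0.35 ± 0.12 (adjusted p = 0.251), and for the slope with vitamin C that of Phf1, the third Polycomb-like gene, at 0.19 ± 0.07 (adjusted p = 0.14). The 7 measured genes of the Polycomb deubiquitinase had 0 calls in each comparison (1, 0, 0 and 1 unadjusted), and so had the 3 genes of the H3K27 demethylases (0, 0, 1 and 1 unadjusted), which remove the mark. In the treatment difference the smallest p of these lists were those of Foxk1 (-0.30 ± 0.11, adjusted p = 0.297) and Asxl3 (0.30 ± 0.13, adjusted p = 0.397) of the deubiquitinase, and of the demethylase genes Kdm6a (-0.04 ± 0.11) and Uty (-0.02 ± 0.11).

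PRC1, the second Polycomb complex, binds the mark and ubiquitinates histone H2A. Of its 22 measured genes, Cbx7, a reader of the mark that embryonic stem cells express, rose with day in cells with vitamin C (0.52 ± 0.07 per day, adjusted p = 0.00224). Its level was 4.80 on day 3 and 6.23 on day 6. The other 21 did not pass, and over all genes 5.25% rose in this test. Without both arrays of day 6 its slope was 0.56 (adjusted p = 0.0870), and without the array with vitamin C of day 6 it was 0.56 (adjusted p = 0.0508). Over all genes the 1046 rises with vitamin C became 137 and 209 in these settings. Untreated Cbx7 had 0.21 ± 0.07 per day (adjusted p = 0.165), and the slopes differed by 0.31 ± 0.10 (adjusted p = 0.289). In limma no PRC1 gene passed for the treatment difference, the interaction or the untreated slope, against 0.752%, 0.0652% and 1.75% of all genes. At an unadjusted p under 0.05 there were 5, 3 and 5 of 22, against 12.7%, 11.3% and 17%. Among these, Bmi1, a ring finger subunit gene, had -0.30 ± 0.07 per day without vitamin C (adjusted p = 0.0529) and a treatment difference of -0.37 ± 0.11 (adjusted p = 0.202), and Rybp had a treatment difference of 0.36 ± 0.11 (adjusted p = 0.200).

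Of 11 genes of the trithorax H3K4 methyltransferases, which act against Polycomb silencing, Ash2l (0.30 ± 0.06 per day, adjusted p = 0.0127) and Kmt2c (0.32 ± 0.06, adjusted p = 0.0132) rose with vitamin C, and 9 did not pass. The share of all genes that rose with day with vitamin C was 5.25%. In untreated cells 0 of 11 passed in limma, against 1.75% of all genes (0 unadjusted, against 17%). Ash2l encodes a core subunit and Kmt2c an enzyme. Neither passed without both arrays of day 3 (0.30, adjusted p = 0.115 for Ash2l and 0.32, adjusted p = 0.142 for Kmt2c), of day 5 (0.30, adjusted p = 0.0628 and 0.30, adjusted p = 0.0614) or of day 6 (0.28, adjusted p = 0.264 and 0.40, adjusted p = 0.151), nor without the single array with vitamin C of day 3 or day 6 (adjusted p from 0.0916 to 0.184). Over all genes the 1046 rises with vitamin C became 467, 506 and 137 without days 3, 5 and 6.

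Known Polycomb targets of embryonic stem cells, most of them genes of differentiation, had no member past the threshold between treatments. In limma 0 of 37 passed over all days, against 0.752% of all genes (4 unadjusted, against 12.7%). The median difference of the targets was -0.012. The smallest p were those of the homeobox gene Hoxd10 (-0.40 ± 0.15, adjusted p = 0.294) and of Gata4 (0.51 ± 0.19, adjusted p = 0.297). With day, in cells with vitamin C, 6 of 37 rose and 2 fell, against 5.25% and 3.39% of all genes. Among the rises were the endoderm genes Sox17 (0.47 ± 0.06 per day, adjusted p = 0.00230), Gata4 (0.67 ± 0.10, adjusted p = 0.00374) and Gata6 (0.48 ± 0.07, adjusted p = 0.00393) and the mesendoderm gene Eomes (0.45 ± 0.07, adjusted p = 0.00401). The others were Gata3 and Fgf8 upwards and Hoxa9 and Pax6 downwards. In untreated cells 3 rose, Fgf8 (0.39), Eomes (0.37) and Msx1 (0.31), and 34 did not pass, against 0.782% of all genes upward. Without both arrays of day 3, 5 or 6 there were 0 untreated rises, and without those of day 4 there were 2. Over all genes the 156 untreated rises became 36, 116, 61 and 0 without days 3, 4, 5 and 6. The median slope was 0.074 in untreated cells and 0.029 with vitamin C, beside medians of 0.0043 and -0.023 over all genes.

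The counts of targets with vitamin C changed with the days used: 3 rose and 0 fell without both arrays of day 3, 7 and 1 without those of day 4, 5 and 1 without those of day 5, and 1 and 0 without those of day 6. Calls over all genes were also fewer in each of these settings. Without the arrays of day 6 the slope of Gata4 was 0.37 (adjusted p = 0.184). For the interaction 0 of 37 targets passed in limma, against 0.0652% of all genes (8 unadjusted, against 11.3%). The smallest p among the targets was that of Gata3 (0.45 ± 0.10 per day, adjusted p = 0.169).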

How the data were processed

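RNA of 8 samples was measured on Affymetrix whole-transcript arrays from 100 ng of total RNA each, after feeder cells had been removed, per the labels' protocols. The authors deposited 1 table of log2 values for 28853 probe sets, and the submitters' processing notes name RMA and Partek, with no version or options stated. RMA pulls arrays to 1 distribution, which can hide a shift shared by most genes. The log2 scale was inferred from the largest value, 13.8. Of the probe sets, 21789 had 1 gene symbol, 1621 had several and 5443 were not listed; 21698 of the first matched a gene of GRCm38.p6, used for names. The probe set with the highest mean stood for each of 19938 genes.

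Tests were limma 3.58.1 (R 4.3.3) moderated tests, two-sided, with Benjamini-Hochberg adjustment over all genes and a threshold of 0.05. The treatment difference had day as a factor (3 residual and 6.03 prior degrees of freedom). The interaction and slopes came from 1 model with a slope on day per treatment (4 and 6.43). The 2 arrays of a day were taken as a pair because the labels give the day; on days 3 to 6, the correlation of their deviations from the group means was 0.371, 0.18, 0.125 and 0.475. The tests were checked on simulated arrays. The members and gene lists (198 entries in 12 lists, 187 matched) were chosen with earlier results of these data known. All members are named; of each other list, the genes past the threshold, up to 4 by p, or 2 with the smallest p, and genes named to complete a count of 8 or fewer. Alternatives were repeated quantile normalization, median centring, a filter on dim genes, other uses of probe sets and of day, trend and robust options, and leaving out days or arrays. Python 3.11.15 ran the tables (pandas 2.3.3) and drew the plots (matplotlib 3.10.9).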

Additional observations from a re-analysis of the deposited data

Results flagged for a closer look

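Among the 20 groups of 4 arrays tested for a value far from the others (10 members in 2 treatments), Phf19 with vitamin C had 1: day 4 read 4.91, and its gap to the next value was 0.915 of the range of the group, above Dixon's 95% critical value for 4 samples. Chance gives about 1 such group in 20. Without both arrays of day 4, the mean difference of Phf19 was 0.19 instead of 0.29, and it did not pass in either case.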

How the results depend on the processing

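With the treatment difference, the interaction and the untreated slope, 0 members passed in each alternative, among them the treatment difference with no replicate block (day left out, 0 members) and the interaction with day as a replicate block (0 members). A slope per treatment could not be fitted with day as a block. With vitamin C, 2 members passed. Centring arrays on their medians left 1, and leaving out a day or an array left 0 to 1. On leaving out a day or an array, calls over all genes also fell, from 1722 to between 167 and 1680. Of 40 member values, 21 kept their sign under each alternative. Some alternatives, such as the trend and robust options, leave an estimate as it is and cannot turn its sign. Signs turned with the mean of a gene's probe sets for the interaction of Eed (-0.011) and Rbbp7 (-0.026), and with repeated quantile normalization for the untreated slopes of Aebp2 (0.0016), Mtf2 (0.020) and Suz12 (0.012) and the treatment difference of Aebp2 (0.0035). With the feeder or fibroblast mean in place of day, the treatment differences were 0.00044 for Aebp2, -0.18 for Ezh1, 0.079 for Ezh2, 0.069 for Rbbp4 and 0.011 for Rbbp7, and with the cell cycle mean -0.031 for Ezh1 and 0.0077 for Rbbp4. The cause was not tested.

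Leaving out a day or an array gave interactions of -0.0020 to 0.19 for Aebp2, -0.016 to 0.15 for Eed, -0.14 to 0.095 for Ezh1, -0.16 to 0.084 for Phf19, -0.098 to 0.086 for Rbbp4 and -0.014 to 0.11 for Rbbp7. Untreated slopes ran from -0.053 to 0.0046 for Mtf2, -0.15 to 0.0078 for Rbbp4 and -0.11 to 0.067 for Suz12, and slopes with vitamin C from -0.023 to 0.13 for Aebp2, -0.16 to 0.012 for Phf19 and -0.060 to 0.028 for Rbbp7. Treatment differences ran from -0.077 to 0.048 for Aebp2, -0.039 to 0.086 for Ezh1, -0.056 to 0.022 for Rbbp4, -0.059 to 0.015 for Rbbp7 and -0.15 to 0.029 for Suz12. The planned log2(value + 1) setting was not run, since the deposited values are already logarithms. The number of arrays, 1 per treatment and day, limits the precision.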
